A study of Homo sapiens with 14 samples.

Results

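The 9 genes described here are MALAT1, NEAT1, TUG1, H19, GAS5, SNHG1, SNHG7, SNHG8 and ZFAS1, a list of nuclear long noncoding RNAs and small nucleolar RNA (snoRNA) host genes. They were taken by gene symbol from 26732 genes listed for both cell lines, and all 9 were found. Their levels were read from RNA sequencing of A549 and H1792, established cell lines from human lung adenocarcinomas, after 48 h with AMG900, which inhibits all aurora kinases, at 0.1 µM, or with the solvent DMSO. There were 4 DMSO and 4 AMG900 libraries of A549 and 3 DMSO and 3 AMG900 libraries of H1792. A549 was grown in DMEM and H1792 in RPMI medium, both with fetal bovine serum. The labels speak of 3 dishes for each treatment, whereas A549 has 4 libraries for each, so some A549 libraries may share a dish, and p-values measure only the spread between these samples, which may be technical. Each group is 1 cell line, in which fewer cells making an RNA and less of it in every cell cannot be told apart.

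Long noncoding RNAs are transcripts that act, where a function is known, as RNA. MALAT1 gathers in nuclear speckles, bodies rich in splicing factors, and NEAT1 is the scaffold on which paraspeckles form. The snoRNA host genes are spliced like messenger RNAs, their introns release snoRNAs that guide chemical modification of ribosomal RNA, and the spliced exons of several of them carry no long reading frame and are cleared by nonsense-mediated decay when ribosomes engage them. GAS5 was named for its accumulation in growth-arrested cells, and H19 is an imprinted RNA of fetal tissues that carries the microRNA miR-675 in an exon.

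The first transcribed bases of snoRNA host genes are often pyrimidines, a feature they share with ribosomal protein genes. The start regions of the 5 host genes are shown because GAS5 and ZFAS1 were upregulated by AMG900 in both lines while SNHG8 and SNHG1 were upregulated in neither. Each run holds 40 bases before and 40 bases from the RefSeq start site on, on the coding strand, located by an exact match in GRCh37. Capitals mark the longest run of C or T that overlaps the 10 bases on either side of the start.
GAS5, chr1:173838144-173838223, minus strand: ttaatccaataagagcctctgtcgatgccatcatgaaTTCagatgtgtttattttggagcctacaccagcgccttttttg
ZFAS1, chr20:47895139-47895218, plus strand: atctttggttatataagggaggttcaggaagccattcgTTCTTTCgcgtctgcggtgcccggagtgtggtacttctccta
SNHG8, chr4:119199877-119199956, plus strand: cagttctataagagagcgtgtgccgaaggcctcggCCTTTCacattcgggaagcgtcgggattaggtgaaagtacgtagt
SNHG1, chr11:62623318-62623397, minus strand: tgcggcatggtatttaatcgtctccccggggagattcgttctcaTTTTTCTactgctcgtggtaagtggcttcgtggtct
SNHG7, chr9:139622597-139622676, minus strand: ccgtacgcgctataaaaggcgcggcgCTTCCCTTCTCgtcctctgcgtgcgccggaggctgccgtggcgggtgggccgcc
The run was 7 bases in ZFAS1 and SNHG1, 6 bases in SNHG8, 11 bases in SNHG7 and 3 bases in GAS5, where the median of all 35116 RefSeq start windows was 4 bases. Only the runs of ZFAS1 (bases -2 to 5) and SNHG8 (-5 to 1) include the first transcribed base. Those of SNHG7 (-14 to -4) and GAS5 (-3 to -1) lie before the start, and that of SNHG1 (5 to 11) lies after the first base. The first base was C in ZFAS1, SNHG8, SNHG1 and SNHG7, and A in GAS5. A run of at least 7 bases was present in 21.3% of all windows, one of at least 6 in 31.1%, one of at least 11 in 5.97% and one of at least 3 in 85.2%. The GAS5 window lies outside the GENCODE model of the gene, which ends at base 173838020 of chromosome 1, so the RefSeq and GENCODE starts of this gene differ. The 3 bases of GAS5 hold for the RefSeq start only, no GENCODE start was scored, and the value may not describe the RNA that was counted. In the full windows, from 250 bases before to 50 after the start, searched on both strands, TATAAA was present for SNHG1, for SNHG7 and for the second of the pair of MALAT1 starts (11.5% of all windows), CACGTG for SNHG7 and TUG1 (7.26%), and CCAAT for GAS5 and TUG1 (34.6%). None of these motifs contains another. H19, SNHG8 and ZFAS1 had none of these letters in the window. No window of NEAT1 was in the table.

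Total counts ranged from 4254644 to 16381683 in A549 with DMSO and from 10932815 to 18962883 with AMG900, and from 42760874 to 65617740 and from 51295049 to 79902934 in H1792. A549 DMSO replicate 1 was the smallest library and stood apart: its log2 values lay 0.55 (root mean square) from the mean of its replicates, against 0.14 to 0.33 for the other 13 libraries. The keratins KRT8 and KRT18 had mean levels of at least 1555 CPM in A549 and 268 CPM in H1792, whereas the lung markers NKX2-1, SFTPB and SFTPC stayed below 0.6 CPM in every library and CDH1 was low in H1792 (at most 1.07 CPM). The epithelial marker EPCAM was at most 0.542 CPM in A549 and 3.93 CPM in H1792, and NAPSA at most 1.46 CPM in any library. Of 6 markers of other cell types, the leukocyte gene PTPRC was at most 0.094 CPM in any library. The endothelial gene VWF reached 5.51 CPM in an A549 DMSO library and 10.85 CPM in an H1792 DMSO library. PECAM1, another endothelial gene, had 3.685 to 5.54 CPM with DMSO and 7.34 to 8.35 CPM with AMG900 in H1792. The sum of the 6 was 55.2 to 81.1 CPM with DMSO and 152 to 171 CPM with AMG900 in A549, and 104 to 132 and 180 to 205 CPM in H1792, most of it the lysosomal gene CD68. Their part in the results was not tested.

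The label "abundant" held for some of the genes. Levels are CPM, the counts on a gene scaled to a fixed library total, after TMM scaling of all 14 libraries together. The levels, ranks and shares in this paragraph are not divided by length, so a long RNA such as NEAT1 weighs more in them. NEAT1 was the highest of the 9 per library in A549, with a mean of 207.9 CPM ± 12.6 (SD, n = 4) with DMSO, and ranked 759 of 18506 detected genes. H19 had 0.144 CPM ± 0.191 (SD, n = 4) there and ranked 15098, and SNHG1 in H1792 with DMSO had 3.23 CPM ± 0.932 (SD, n = 3) and ranked 10556 of 20532. Together the 9 RNAs held 695.8 ± 55.5 CPM, on the scale of total counts, in A549 with DMSO and 868 ± 54.6 with AMG900 (SD, n = 4 each), and 396 ± 4.25 and 441 ± 20.3 in H1792 (SD, n = 3 each). MALAT1 and NEAT1 made up 55.0% ± 3.26 of these counts in A549 and 37.2% ± 0.429 in H1792 with DMSO, and the 5 host genes 40.7% ± 2.64 and 58.6% ± 0.746.

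Levels of different genes can be compared only per length. Per kilobase of merged GENCODE exons, in A549 with DMSO, MALAT1 had 14.2 ± 1.36 CPM, SNHG7 13.7 ± 1.17, GAS5 12.0 ± 1.16, ZFAS1 10.9 ± 1.07 and NEAT1 9.13 ± 0.554 (SD, n = 4), followed by SNHG8 at 4.84 ± 1.35, SNHG1 at 3.99 ± 2.02 and TUG1 at 2.72 ± 0.767. The neighbours MALAT1 and SNHG7, SNHG7 and GAS5, GAS5 and ZFAS1, ZFAS1 and NEAT1, SNHG8 and SNHG1, and SNHG1 and TUG1 had ranges that overlapped over the libraries. In H1792 with DMSO, SNHG7 came first at 16.6 ± 1.77, before GAS5 at 11.0 ± 0.910, ZFAS1 at 6.59 ± 0.257, MALAT1 at 6.37 ± 0.141, SNHG8 at 5.89 ± 1.20 and NEAT1 at 3.57 ± 0.182 (SD, n = 3), and the ranges of ZFAS1, MALAT1 and SNHG8 overlapped one another. Merged exons count every annotated isoform, so these values are too low for the short spliced forms of the host genes. On the longest annotated transcript SNHG7 (28.4 CPM per kilobase), ZFAS1 (19.9) and GAS5 (18.8) came before MALAT1 (14.2) in A549 with DMSO.

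**Figure D1:**
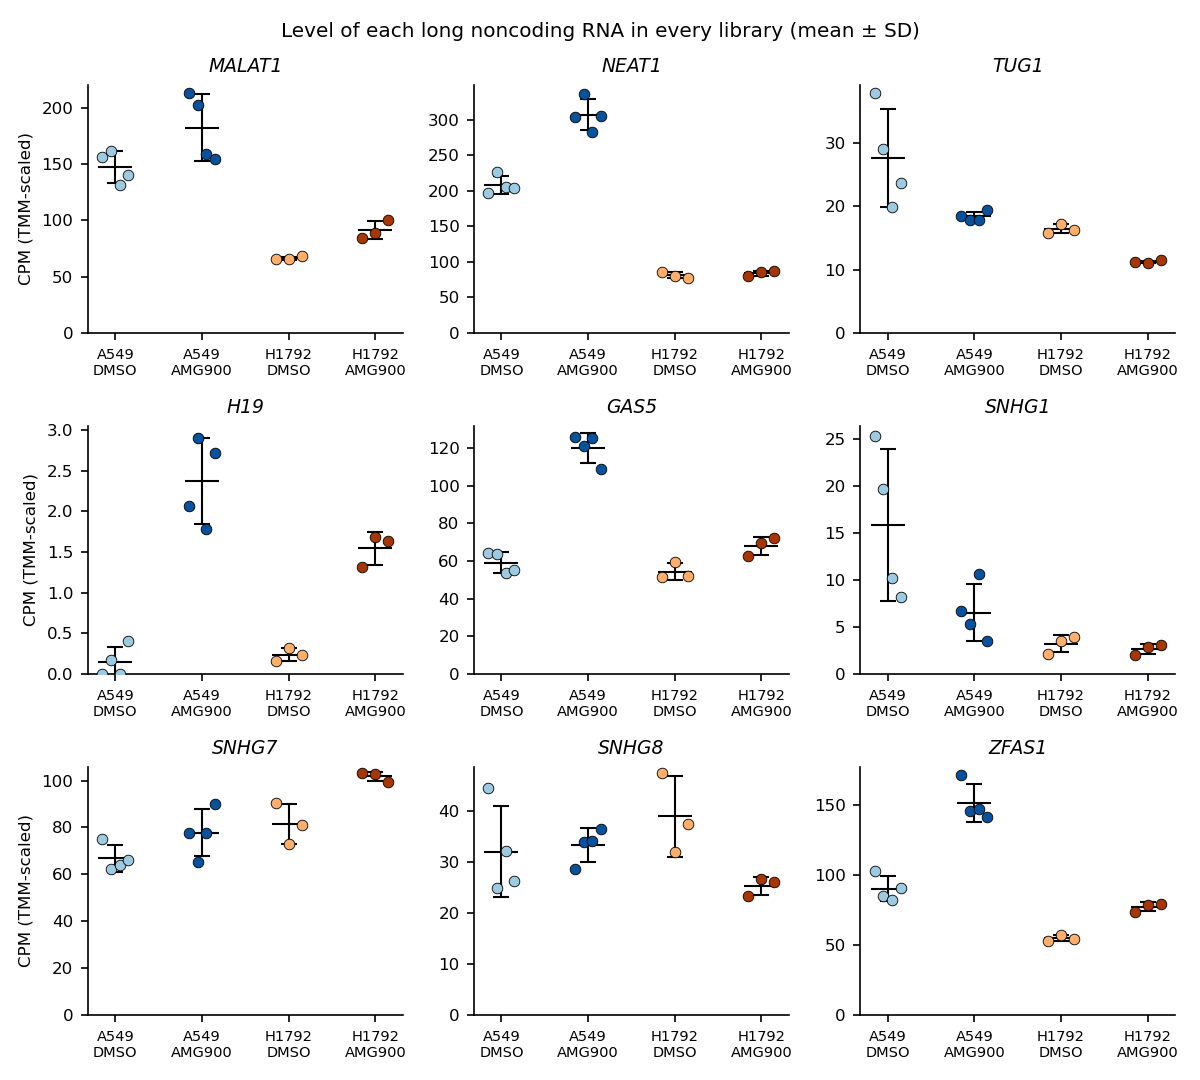
Level of each of the 9 RNAs in CPM (vertical axes, linear and from 0, each on its own scale) in the 14 libraries, by cell line and treatment. Points are libraries and black bars the mean and SD (n = 4 in A549, n = 3 in H1792), and GAS5, ZFAS1 and H19 lie higher with AMG900 than with DMSO in both lines without overlap, whereas TUG1 lies lower.

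The question of the main comparison was how these RNAs responded to inhibition of the aurora kinases. By the quasi-likelihood test of edgeR, Benjamini-Hochberg adjusted over all genes tested and called at an FDR of 0.01, 6 of the 9 were differentially expressed in A549 (4 upregulated, 2 downregulated), where 35.0% of all 13174 genes tested were (17.2% up, 17.8% down). In H1792, 7 of the 9 were (5 upregulated, 2 downregulated), against 35.1% of 15017 genes (16.2% up, 18.8% down). The median log2 fold change of the 9 was 0.23 in A549 and 0.32 in H1792, against -0.01 and 0.01 for all genes, and 0.55 and 0.19 with a correction for GC content. H19 passed the filter on low counts in both lines only with its AMG900 libraries. Without H19, 5 of 8 were differentially expressed in A549 (3 up, 2 down, median 0.19) and 6 of 8 in H1792 (4 up, 2 down, median 0.18). H19, GAS5 and ZFAS1 were upregulated in both lines (7.29% of the 12625 genes tested in both lines were). TUG1 was downregulated in both (9.31% of genes). Fold changes within a line come from a fit of that line alone, so the ratio of the printed CPM values can differ slightly: joint scaling moved the difference between the lines' log2 fold changes by -0.075 in the median gene.

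H19 had the largest fold change of the 9 in both lines. Its counts in A549 were 0, 2, 0 and 7 with DMSO (0, 0.172, 0 and 0.403 CPM) and 22, 41, 33 and 41 with AMG900 (2.07, 2.91, 1.79 and 2.72 CPM). In H1792 they were 10, 15 and 10 (0.157, 0.315 and 0.234 CPM) and 100, 82 and 92 (1.32, 1.68 and 1.64 CPM). Every AMG900 library was higher than every DMSO library of its line, at levels that remained low. The log2 fold change was 3.55 ± 0.565 (SE) in A549 (adjusted p = 1.4e-04) and 2.73 ± 0.312 in H1792 (adjusted p = 6.4e-05). Pooled counts gave 12.4-fold (exact 95% interval 6.34 to 27.7, counting error only) and 6.68-fold (4.68 to 9.78). The A549 fold rests on few DMSO counts: without DMSO replicate 4 the log2 fold change was 4.88, and the pooled fold was 35.3 with an interval of 9.59 to 294.5. In A549 the gene reached the test through its AMG900 libraries, so its call there is no more than a description. The A549 DMSO libraries with 0 counts allow up to 0.665 and 0.216 CPM (3 counts each). In H1792 H19 also needed its AMG900 libraries to pass the filter used. There its counts were at least 10 in every library, and its call held with a filter at that count. MIR675, which lies within H19, was listed at 0 in every library, which allows up to 0.00667 CPM of reads counted on that entry over all of them. The neighbouring entries LINC01219 and INS-IGF2 were at 0 as well. How reads shared by overlapping entries were counted is not given in the sources used here. A 0 on such an entry therefore sets no limit on the level of its RNA. MRPL23, a mitochondrial ribosomal protein gene whose annotation overlaps H19, had log2 fold changes of 0.13 ± 0.101 and 0.21 ± 0.0990 and was not differentially expressed.

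GAS5 was upregulated in both lines and more in A549. In A549 it had 64.5, 63.6, 53.4 and 55.0 CPM with DMSO and 125.7, 121, 125 and 108.7 CPM with AMG900. In H1792 it had 51.4, 59.4 and 52.0 CPM with DMSO and 62.6, 69.4 and 72.0 CPM with AMG900. The groups did not overlap in either line, but in H1792 the gap between them was narrow. The fold change was 1.93 in A549 (log2 0.95 ± 0.0926, adjusted p = 1.2e-06) and 1.25 in H1792 (log2 0.32 ± 0.0767, adjusted p = 0.00545). The H1792 call was lost with scaling by total counts (log2 0.26) and in 3 of 6 fits that left out a library (those without AMG900 replicate 2, AMG900 replicate 3 or DMSO replicate 3, log2 0.31, 0.28 and 0.29). GAS5 lies on chromosome 1, bases 173827697 to 173838020 on the minus strand, and holds 11 snoRNAs in RefSeq. Only 2 reads in all 14 libraries were counted on these 11 entries, which for entries inside another gene sets no limit on the level of the snoRNAs. GAS5-AS1, on the other strand, had at most 5 counts in a library.

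ZFAS1, the host of 3 SNORD12 snoRNAs, was upregulated in both lines. Its levels in A549 were 102.6, 85.3, 82.5 and 90.4 CPM with DMSO and 171.6, 146, 147 and 141 CPM with AMG900. In H1792 they were 52.9, 57.1 and 54.2 CPM and 73.6, 78.6 and 79.6 CPM. No library of a treatment overlapped the other treatment in either line. The fold change was 1.60 in A549 (log2 0.68 ± 0.0916, adjusted p = 3.2e-05) and 1.41 in H1792 (log2 0.49 ± 0.0594, adjusted p = 8.7e-05), and both calls held in all the alternatives run. ZFAS1 is transcribed from beside the start of ZNFX1, on the other strand. ZNFX1, an RNA helicase gene, was upregulated as well, by 0.34 ± 0.0877 in A549 (adjusted p = 0.00576) and 0.39 ± 0.0635 in H1792 (adjusted p = 5.5e-04) on the log2 scale. Whether counting used strand is not given in the sources used here, so reads on overlapping antisense exons cannot be assigned. Within a library, the ratio of GAS5 to ZFAS1 counts was 0.657 ± 0.0610 with DMSO and 0.795 ± 0.0537 with AMG900 in A549 (SD, n = 4), and 0.990 ± 0.0444 and 0.879 ± 0.0273 in H1792 (SD, n = 3), and the ranges overlapped in A549 but not in H1792.

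TUG1, a long noncoding RNA that GENCODE now types as protein coding, was downregulated in both lines. In A549 it had 37.9, 29.1, 19.96 and 23.7 CPM with DMSO and 18.6, 17.8, 17.8 and 19.5 CPM with AMG900. The DMSO libraries spread 1.90-fold and the AMG900 libraries 1.09-fold, and the lowest DMSO library lay close above the highest AMG900 library. In H1792 the levels were 15.8, 17.2 and 16.3 CPM and 11.2, 11.1 and 11.5 CPM, a clear separation. The log2 fold change was -0.63 ± 0.166 in A549 (adjusted p = 0.00578) and -0.55 ± 0.0790 in H1792 (adjusted p = 2.6e-04). Without A549 DMSO replicate 1, which had the highest value, it was -0.47 and remained past the threshold. The A549 call was lost in 5 of 8 fits that left out a library, those without any of the 4 AMG900 replicates or without DMSO replicate 2 (log2 -0.65 to -0.59). The neighbours of TUG1 on chromosome 22 did not fall with it: MORC2, an ATPase of gene silencing, had 0.01 ± 0.0752 in A549 and rose by 0.22 ± 0.0551 in H1792 (adjusted p = 0.00656), and SMTN, the smoothelin gene, had 0.37 ± 0.129 and 0.27 ± 0.0762 (log2, not called).

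MALAT1 and NEAT1 are neighbours on chromosome 11, at bases 65265111 to 65275544 and 65190245 to 65213011 on the plus strand. NEAT1 was upregulated past the threshold in A549, and MALAT1 in H1792. NEAT1 in A549 had 197, 226, 205 and 204 CPM with DMSO and 304, 336, 283 and 304 CPM with AMG900, without overlap. In H1792 it had 85.8, 80.3 and 77.7 CPM and 79.9, 85.6 and 86.7 CPM, and the groups overlapped. NEAT1 had a log2 fold change of 0.48 ± 0.0733 in A549 (adjusted p = 9.2e-05) and 0.04 ± 0.0602 in H1792 (adjusted p = 0.562, 95% interval -0.09 to 0.18). The short and the long form of NEAT1 share a start site and were counted together.

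MALAT1 in H1792 had 65.5, 65.8 and 68.2 CPM with DMSO and 84.6, 89.2 and 100.5 CPM with AMG900, without overlap. In A549 it had 157, 162, 132 and 140 CPM and 213, 203, 159 and 155 CPM, where 2 AMG900 libraries lay among the DMSO libraries. MALAT1 had a log2 fold change of 0.46 ± 0.0686 in H1792 (adjusted p = 3.5e-04) and 0.23 ± 0.114 in A549 (adjusted p = 0.111, 95% interval -0.02 to 0.47), and with a correction for GC content it was past the threshold in A549 as well. The ratio of MALAT1 to NEAT1 counts within a library needs no scaling. It was 0.711 ± 0.0641 with DMSO and 0.594 ± 0.0818 with AMG900 in A549 (SD, n = 4), where the ranges overlapped, and 0.820 ± 0.0573 and 1.09 ± 0.0630 in H1792 (SD, n = 3), where every AMG900 library was above every DMSO library. FRMD8, a gene beside the pair whose protein binds the inactive rhomboid proteins, had log2 fold changes of 0.18 ± 0.118 in A549 and -0.17 ± 0.0758 in H1792. MIR612, within NEAT1, was at 0 in every library, which for an entry inside another gene sets no limit on its RNA.

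SNHG1, the host of SNORD22 and of SNORD25 to SNORD31, varied widely between replicates, with coefficients of variation of 20.3% to 50.7% in the 4 groups. Its levels in A549 were 25.3, 19.7, 10.2 and 8.24 CPM with DMSO and 6.69, 5.32, 10.6 and 3.52 CPM with AMG900. The highest AMG900 library lay above the lowest pair of DMSO libraries. Its log2 fold change was -1.28 ± 0.363 (adjusted p = 0.00948), just past the threshold. It was not past it with DESeq2 (log2 -1.35) or with at least 10 counts in every library (log2 -1.24), nor without DMSO replicate 2 or AMG900 replicate 1, 2 or 4 (log2 -1.29 to -1.05), and adjusted p ranged from 2.6e-04 to 0.0357 over all its alternatives. In H1792, SNHG1 had 2.18, 3.53 and 3.97 CPM with DMSO and 2.03, 2.85 and 3.04 CPM with AMG900 (log2 -0.29 ± 0.237, adjusted p = 0.334). Its neighbours WDR74, a ribosome assembly gene, and SLC3A2, an amino acid transporter subunit, were less variable: WDR74 had 0.16 ± 0.0797 and 0.18 ± 0.0926, and SLC3A2 fell by 0.23 ± 0.0581 in A549 (adjusted p = 0.0049). RMRP, an RNA without a poly(A) tail that was chosen after its values were seen, also varied between replicates and went the other way: 0.887 to 6.86 CPM with DMSO and 5.11 to 47.8 CPM with AMG900 in A549, and 3.10 to 8.43 and 8.11 to 33.2 CPM in H1792. RPPH1 and TERC, also without a poly(A) tail, were chosen along with RMRP. RPPH1 had log2 fold changes of 1.81 ± 0.571 in A549 and 1.485 ± 0.474 in H1792, neither past the threshold. TERC was not tested in A549 and had 0.25 ± 0.312 in H1792, not past it. The relation of these RNAs to SNHG1 was not tested.

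SNHG8, the host of SNORA24, was downregulated in H1792, with 47.5, 31.9 and 37.4 CPM with DMSO and 23.3, 26.7 and 26.1 CPM with AMG900. All AMG900 libraries were lower, and the DMSO libraries spread 1.49-fold. This was a log2 fold change of -0.62 ± 0.125 (adjusted p = 0.00209), and the call was lost without AMG900 replicate 1 (-0.57) or AMG900 replicate 3 (-0.64). In A549 the levels were 44.6, 24.9, 32.2 and 26.3 CPM with DMSO and 28.6, 33.9, 34.1 and 36.5 CPM with AMG900, and only DMSO replicate 1 exceeded the AMG900 libraries. There the log2 fold change was 0.01 ± 0.156 (adjusted p = 0.951), with a 95% interval of -0.32 to 0.35, and 0.19 without that replicate. PRSS12, the serine protease gene beside SNHG8, had 0.18 ± 0.294 and -0.06 ± 0.113, and NDST3 had at most 5 counts in a library.

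SNHG7, the host of SNORA17A and SNORA17B, was upregulated in H1792, from 90.3, 73.0 and 81.0 CPM to 103.1, 102.9 and 99.5 CPM, without overlap. The log2 fold change was 0.32 ± 0.0740 (adjusted p = 0.00477), and the call was lost in 4 of 6 fits that left out a library, those without any of the 3 AMG900 replicates or without DMSO replicate 3 (log2 0.31 to 0.34). In A549 it had 75.1, 62.5, 63.8 and 66.2 CPM with DMSO and 77.8, 65.4, 77.9 and 90.0 CPM with AMG900, and the groups overlapped (log2 0.15 ± 0.0996, adjusted p = 0.245, 95% interval -0.07 to 0.36). Its neighbour AGPAT2, a lipid synthesis enzyme gene, had 0.34 ± 0.0991 in A549 (adjusted p = 0.0115) and rose by 0.36 ± 0.0687 in H1792 (adjusted p = 0.00157). LCN10, on its other side, had at most 65 counts in a library.

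Base composition divided the 9 genes. The longest annotated transcripts of SNHG7 and H19 had 65.9% and 63.6% G and C, and those of the other 7 genes 39.0% to 46.3%. The longest transcripts of SNHG8, ZFAS1, SNHG1 and GAS5 had 6166, 4526, 3771 and 3145 bases, where the median transcript had 489, 686, 1310 and 731. The GC content of their short spliced forms may differ, so the corrected values may not hold for those forms. With a correction for GC content, the log2 fold changes of the 7 low-GC genes moved up and those of SNHG7 and H19 moved down, in both lines. The correction depends on GC content alone, so genes of similar GC content move alike. In A549, SNHG7 turned from 0.15 to -0.31 and MALAT1 went from 0.23 to 0.55, both then past the threshold (SNHG7 no longer with the replicate block added), while TUG1 (-0.37) and SNHG1 (-0.97) were no longer past it. In H1792, SNHG7 turned to -0.03 and SNHG8 went to -0.25, neither past the threshold. MALAT1 remained upregulated in H1792 (0.69). H19, GAS5, ZFAS1 and, in A549, NEAT1 remained upregulated, with corrected log2 fold changes of 3.10, 1.40, 0.76 and 0.69 in A549, and of 2.38, 0.71 and 0.55 for the first 3 in H1792. TUG1 in H1792 remained downregulated at -0.36.

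**Figure D2:**
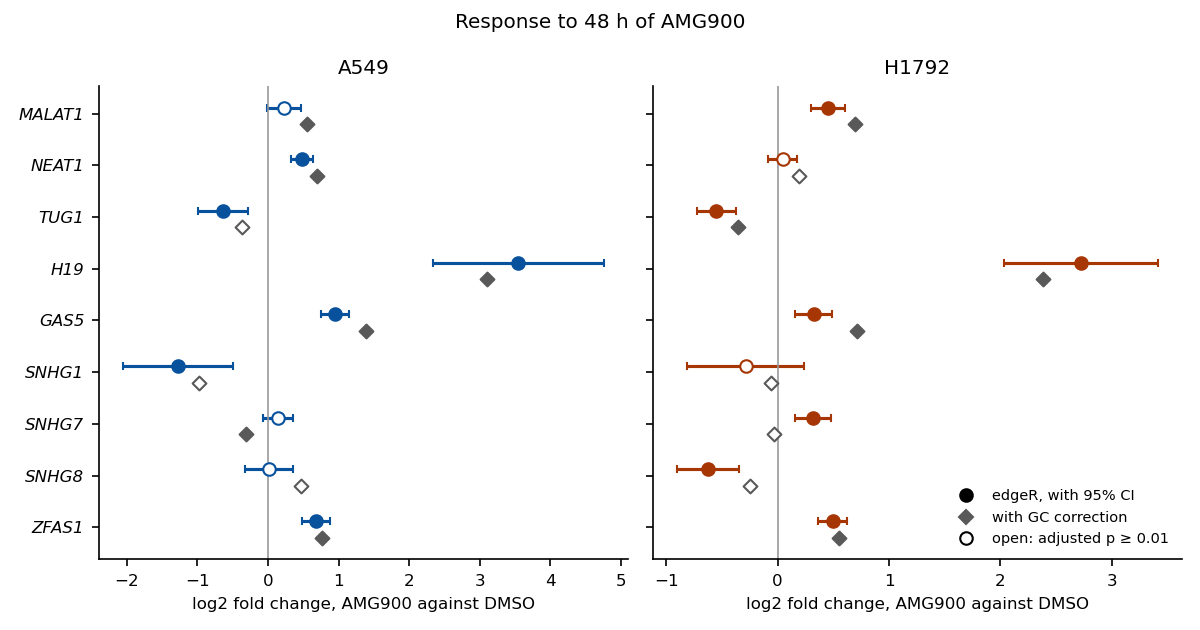
Log2 fold change of each RNA, AMG900 against DMSO (horizontal axes), in A549 and H1792, with circles and 95% confidence intervals from edgeR and diamonds for the value with GC correction. Filled symbols have an adjusted p under 0.01, and the plot shows H19, GAS5 and ZFAS1 right of 0 in both lines by either value, while SNHG7 lies on different sides of 0.

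The next question was whether the response differed between the lines, tested by an interaction term in a fit over all 14 libraries. Of the 9, NEAT1 and GAS5 were past the threshold, against 14.5% of 14769 genes. The response of NEAT1 was lower in H1792, with an interaction of -0.51 ± 0.100 on the log2 scale (adjusted p = 9.1e-04), and so was that of GAS5, at -0.71 ± 0.123 (adjusted p = 2.9e-04). Both were past the threshold in every alternative run, including each library left out. For all genes the median interaction was -0.10 and 793 were higher and 1355 lower in H1792, whereas the size factors of DESeq2 gave a median of -0.02 with 1012 higher and 1033 lower, and the correction for GC content 1330 higher and 1106 lower. NEAT1 and GAS5 exceeded this shift. SNHG8 had an interaction of -0.72 ± 0.222 (adjusted p = 0.0223), and it was past the threshold without A549 DMSO replicate 1 (-0.88), without H1792 DMSO replicate 2 (-0.85) and with no filter on low counts (-0.71). The other 6 were not past it. MALAT1 had 0.15 (95% interval -0.16 to 0.46), ZFAS1 -0.26 (-0.50 to -0.02), SNHG7 0.10 (-0.19 to 0.38) and TUG1 0.00 (-0.46 to 0.47), and the intervals of H19 (-2.47 to 0.60) and SNHG1 (-0.16 to 1.96) were wide.

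Between the lines, 5 of the 9 RNAs were lower in H1792 than in A549 with DMSO and none was higher, where 31.9% of genes were lower and 34.2% higher. NEAT1 had a log2 difference of -1.36 ± 0.0736 (adjusted p = 2.8e-12), MALAT1 had -1.15 ± 0.109 (adjusted p = 1.3e-08) and SNHG1 -2.23 ± 0.368 (adjusted p = 2.0e-05). TUG1 had -0.71 ± 0.147 (adjusted p = 2.5e-04) and ZFAS1 -0.71 ± 0.0837 (adjusted p = 2.8e-07). GAS5 had -0.11 ± 0.0883 (95% interval -0.30 to 0.07), SNHG7 0.29 ± 0.0969 (adjusted p = 0.0106), SNHG8 0.33 ± 0.158 and H19 0.31 ± 0.648. Without A549 DMSO replicate 1, SNHG7 (0.34) and SNHG8 (0.49) were past the threshold as higher in H1792. SNHG7 was also past it, at 0.29 to 0.37, with no filter on low counts, with at least 10 counts in every library, and without H1792 DMSO replicate 2 or A549 AMG900 replicate 2 or 4. Line, medium and sequencing depth cannot be told apart in this comparison.

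With AMG900 in both lines, 6 of the 9 were lower in H1792 and 1 was higher, where 35.3% of genes were lower and 33.1% higher. NEAT1 had -1.87 ± 0.0744, SNHG1 -1.33 ± 0.368, MALAT1 -0.996 ± 0.107, ZFAS1 -0.97 ± 0.0823, GAS5 -0.82 ± 0.0865 and TUG1 -0.71 ± 0.147, each past the threshold. SNHG7 was higher by 0.39 ± 0.0947 on the log2 scale (adjusted p = 0.00107). For GAS5 and NEAT1 this restates the interaction from the other side, as the same libraries are used. The SNHG1 call was lost without H1792 AMG900 replicate 1 (-1.16) or A549 AMG900 replicate 3 (-0.96).

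**Figure D3:**
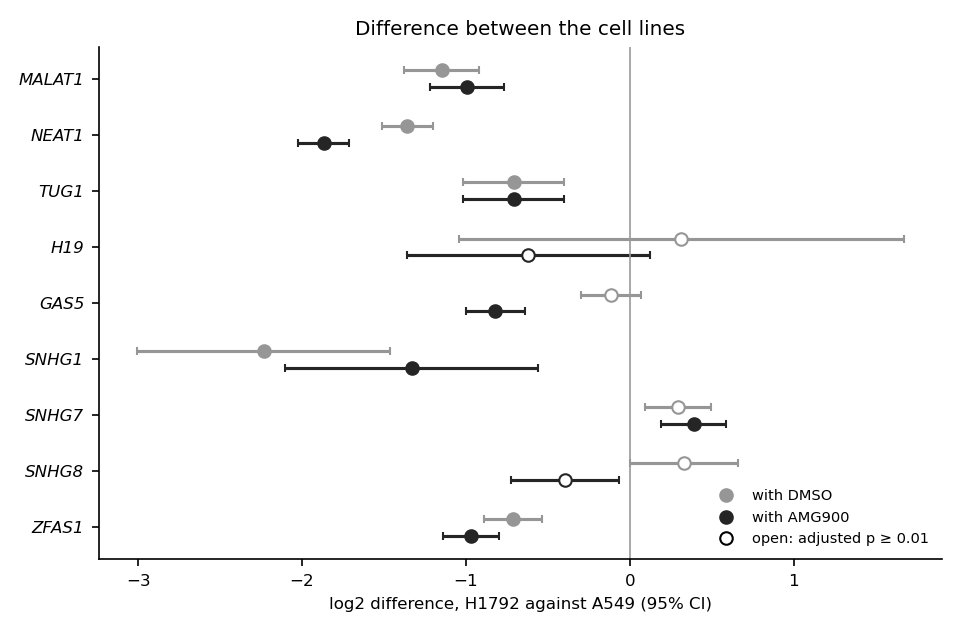
Log2 difference between H1792 and A549 (horizontal axis, negative where H1792 is lower) for each RNA, with DMSO in grey and with AMG900 in black. Circles are edgeR estimates with 95% confidence intervals, filled where the adjusted p is under 0.01, and MALAT1, NEAT1, TUG1, SNHG1 and ZFAS1 lie left of 0 in both treatments.

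Other snoRNA host genes moved in both directions. Of 20 further noncoding host genes, 17 were tested in A549, of which 3 were upregulated, 2 downregulated and 12 not past the threshold (median log2 fold change -0.11). In H1792 19 were tested, with 7 up, 1 down and 11 not past it (median 0.28). Of all genes, 17.2% were up and 17.8% down in A549, and 16.2% and 18.8% in H1792, and these shares stand behind the counts of each list that follows too. EPB41L4A-AS1, host of SNORA13, rose by 1.12 ± 0.129 in A549 (adjusted p = 6.6e-06) and had 0.30 ± 0.101 in H1792. SNHG3 fell by 1.07 ± 0.111 on the log2 scale in A549 (adjusted p = 2.4e-06) and had -0.20 ± 0.0785 in H1792. SNHG18 rose by 1.03 ± 0.131 in H1792 (adjusted p = 1.3e-04), and SNHG11 rose in both lines (0.62 ± 0.142 and 0.49 ± 0.102, the latter 2 values chosen after they were seen). Entries for the snoRNAs themselves received few reads: of 280 SNORD entries, 14 had any read in A549 and 38 in H1792. These counts set no limit on the level of the snoRNAs.

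Of the 13 core snoRNP proteins and assembly factors, which package snoRNAs, 6 were downregulated and none upregulated in A549 (median -0.32), with NOP58, a core box C/D protein, at -1.41 ± 0.324 (adjusted p = 0.00242). In H1792, 3 were upregulated and 2 downregulated (median 0.13, but -0.03 with GC correction), among them SNU13 at 0.55 ± 0.0510 and SHQ1, an assembly factor of box H/ACA particles, at -0.60 ± 0.117. The 79 cytosolic ribosomal protein genes, which share the pyrimidine start with host genes, had 19 up and none down of 78 tested in A549 (median 0.17) and 42 up and 7 down of 79 in H1792 (median 0.29). With scaling by total counts, 10 ribosomal protein genes were up and 4 down in A549 (median 0.10), and 39 up and 9 down in H1792 (median 0.22). Among the genes past the threshold, RPS19 had the largest rise in A549 (0.66 ± 0.0799) and RPS26 in H1792 (0.80 ± 0.0709), while RPL39 fell by 3.41 ± 0.0865 on the log2 scale in H1792. Reads of ribosomal protein genes can be shared with their many pseudogenes.

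Of 14 nonsense-mediated decay factors, which degrade GAS5 and other host RNAs, 1 was upregulated and 6 downregulated in A549 (median -0.30) and 2 up and 3 down in H1792, where the median of 0.06 turned to -0.003 with total counts and to -0.04 with GC correction (5 up, 6 down). SMG1, the kinase that phosphorylates UPF1, fell in both lines, by 1.15 ± 0.136 (adjusted p = 9.3e-06) and 0.83 ± 0.112 (adjusted p = 1.9e-04) on the log2 scale, and its reads may be shared with its many partial copies. SMG6, an endonuclease of the pathway, rose by 0.61 ± 0.0746 in A549 (adjusted p = 1.2e-05), and SMG9, a partner of SMG1, by 0.48 ± 0.0611 in H1792 (adjusted p = 1.3e-04).

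Paraspeckle proteins assemble with NEAT1. Of 14 of them, 11 were downregulated and none upregulated in A549 (median -0.47), and 7 and none with GC correction (median -0.33), with SFPQ, which binds NEAT1 directly, at -0.95 ± 0.0987 (adjusted p = 2.3e-06). In H1792, 3 were downregulated and 1 upregulated (median -0.13), and 7 and 3 with GC correction (median -0.11), with TARDBP at -0.51 ± 0.0527 (adjusted p = 3.9e-05) and EWSR1 at 0.26 ± 0.0494 (adjusted p = 0.00147). Of 10 nuclear speckle and MALAT1 binding proteins, 8 were downregulated in A549 (median -0.45) and 5 in H1792, where 1 was upregulated (median -0.29). The splicing factors SRSF2 in A549 (-1.11 ± 0.153, adjusted p = 3.6e-05) and SRSF3 in H1792 (-1.06 ± 0.103, adjusted p = 2.5e-05) fell most, and HNRNPC rose by 0.36 ± 0.0806 in H1792 (adjusted p = 0.0038).

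Of 17 other long noncoding RNAs, 13 were tested in A549 (3 up, 1 down, median 0.40) and 15 in H1792 (5 up, 3 down, median 0.05), where total counts left 1 up and 3 down and turned the median to -0.01. With GC correction 6 were up and none down in A549 (median 0.72), and 5 up and 2 down in H1792 (median 0.29). MEG3, an imprinted RNA like H19, rose by 1.31 ± 0.126 in A549 (adjusted p = 1.2e-06) and was not tested in H1792. In H1792, KCNQ1OT1, another imprinted RNA, rose by 0.63 ± 0.158 (adjusted p = 0.00723), and CRNDE fell by 0.89 ± 0.132 on the log2 scale (adjusted p = 3.2e-04). KCNQ1OT1 had 0.68 in A549, not past the threshold. In the same comparisons, all 10 cell cycle markers were downregulated in A549 (median -3.08, RRM2 at -3.87 ± 0.106) and 7 of 10 in H1792 (median -0.55, CCNA2 at -1.32 ± 0.0772). MKI67, CCNB1 and TOP2A were not past the threshold in H1792. The part of the cell cycle in the results on the 9 RNAs was not tested.

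**Figure D4:**
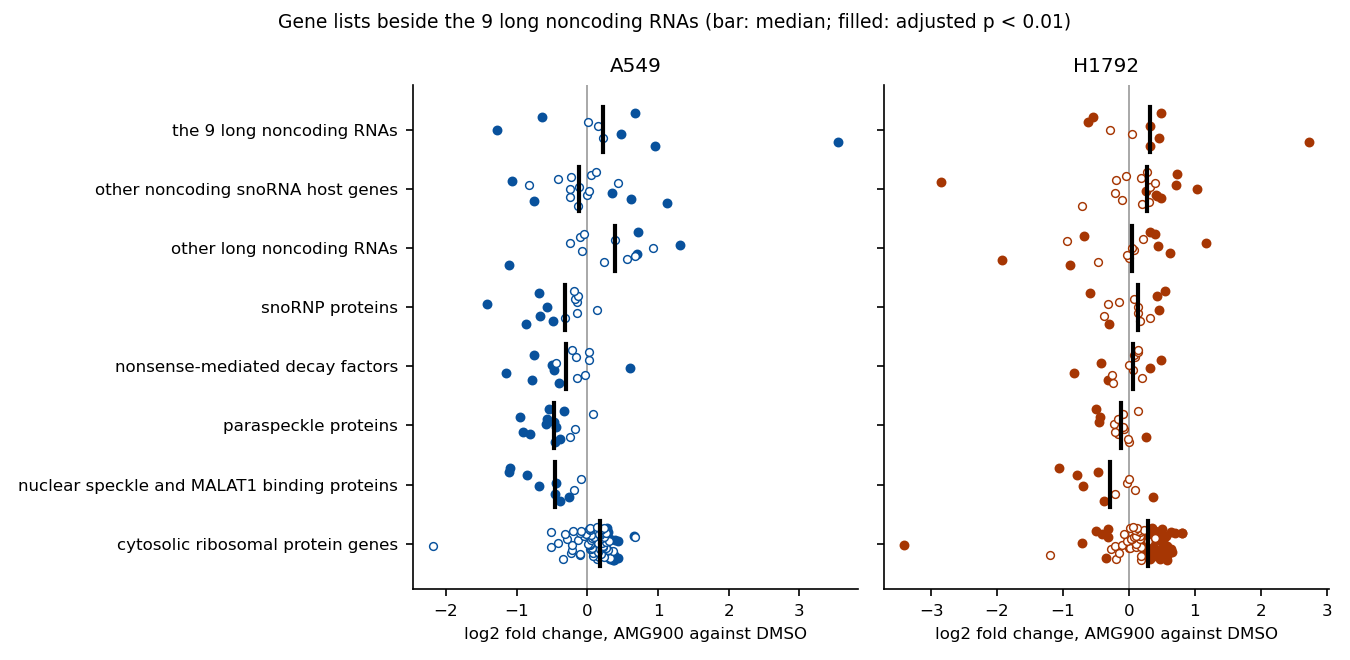
Log2 fold change, AMG900 against DMSO (horizontal axes), of the genes tested in each list in A549 (left) and H1792 (right). Each point is a gene, filled where the adjusted p is under 0.01, black bars are medians, and the paraspeckle proteins have a median of -0.47 in A549 and -0.13 in H1792.

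The genes with the most similar levels over the 14 libraries are given as a description. Likeness was the root mean square difference of log2 CPM after centring each gene, over 10856 genes that averaged 100 or more counts, and it rests mainly on the 4 group means. NEAT1 was nearest to AEN (0.086), CLN8 (0.11) and STAT3 (0.11), and MALAT1 to VPS8 (0.12), PRKAG1 (0.14) and TAX1BP1 (0.17). TUG1 was nearest to STAMBPL1, SLC25A3 and UQCRFS1 (0.095 to 0.12), GAS5 to PLIN2, HOMEZ and EVA1C (0.12 to 0.13), and ZFAS1 to FAM50A, BRE and LRRC75A-AS1 (0.10 to 0.13). SNHG7 was nearest to FASTK, MVD and AKAP8L (0.095 to 0.098), SNHG8 to C17orf89, ZC3H4 and FBXO9 (0.15 to 0.18), and SNHG1 to PSMA4, AKTIP and MGEA5 (0.34 to 0.40). H19 had no close match, with CCL5 the nearest at 0.75, then CYGB and FEZ1 at about 1.0, where its own spread around its mean was 1.87.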

How the data were processed

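RNA was purified from cultures of A549 and H1792 cells (RNeasy kit), prepared with standard Illumina protocols and sequenced on a NextSeq instrument. The authors deposited raw read counts per gene symbol, one table per line, with no normalization. STAR, HTSeq, hg19 and GRCh37 are named in the submitters' processing notes, and whether libraries were poly(A)-selected or counted by strand is not given in the sources used here. The H1792 table has 28 entries that bear calendar dates, which were left out. Positions, lengths and GC content came from GENCODE 44 lifted to GRCh37, and gene order, snoRNA positions and start windows from RefSeq (GRCh38.p14, windows relocated in GRCh37). The counts themselves do not depend on these annotations.

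Genes were filtered by filterByExpr, scaled by TMM and tested by the quasi-likelihood test of edgeR 4.0.16 in R 4.3.3 (Benjamini-Hochberg over all genes, FDR threshold 0.01), for each line alone and, for the interaction and the differences between lines, over all 14 libraries. Values after ± are SD for levels and SE for log2 differences. The steps were tested on simulated data. Replicates differed by more than sampling noise (chi-square per gene 3.31 to 48.3), which does not show whether they came from separate dishes. Each library was treated as a separate sample. The biological coefficient of variation was 12.8% in A549 and 9.60% in H1792, which limits precision where counts are high. Counting error limits it where they are low.

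The 9 genes and all lists were chosen with earlier results of these data known. Named genes are the 9, their neighbours, the called gene with the largest rise and fall in each line from each of 10 lists (averaging 100 counts or more), and the 3 genes most like each of the 9. Markers of cell types and of the cell cycle were also named outside this rule, and other genes outside it are marked in the text. Results on some neighbours are not reported here. Alternatives were DESeq2 1.42.0 or only its size factors, scaling by total counts, a looser FDR of 0.05, a replicate block, all genes unfiltered or only those that reach 10 counts everywhere, a correction for GC content (natural spline, 5 degrees of freedom per library) with and without the block, and each library left out.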

Additional observations from a re-analysis of the deposited data

Results flagged for a closer look

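The response to AMG900 differed between the cell lines by the test of the interaction for 2 of the 9 RNAs, where it did for 14.5% of 14769 genes. For NEAT1 the log2 fold change was lower in H1792, with an interaction of -0.51 ± 0.100 (SE, edgeR adjusted p = 9.1e-04): NEAT1 was higher with AMG900 in 4 of 4 A549 libraries, and the H1792 groups overlapped. For GAS5 the interaction was -0.71 ± 0.123 (SE, edgeR adjusted p = 2.9e-04), with higher values in 4 of 4 A549 and 3 of 3 H1792 AMG900 libraries. In the 18 sets of 4 A549 libraries (9 RNAs, 2 treatments), no library was far enough from the others to pass Dixon's criterion at 95%.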

How the results depend on the processing

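Over the alternatives run, the number of RNAs past the threshold was within 1.5 times the reported number in all 5 comparisons, except that 4 and not 7 of the 9 were past it in H1792 without AMG900 replicate 3. Leaving out a library gave 4 to 6 in A549 and 4 to 7 in H1792, 2 to 3 for the interaction, and 5 to 7 and 6 to 8 between the lines with DMSO and with AMG900. Of 905 values of a single RNA under an alternative, 838 kept their direction and side of the threshold, 29 were no longer past it, 16 were newly past it and 22 changed sign. Changes of sign were as follows. With GC correction, SNHG7 gave -0.31 in A549, -0.033 in H1792 and -0.074 for H1792 against A549 in DMSO, and with the replicate block added -0.31, -0.033 and -0.08. With total counts, SNHG8 gave -0.061 in A549 and NEAT1 -0.019 in H1792. In leave-one-out fits, SNHG8 in A549 ranged from -0.086 to 0.19 (-0.003, -0.022, -0.086 and -0.082 where it changed sign), the TUG1 interaction from -0.15 to 0.14, and H19 between the lines in DMSO from -0.16 to 1.74. The TUG1 interaction was also -0.006 with at least 10 counts in every library and -0.015 with the replicate block. The cause of these changes was not tested. Replicate numbers did not pair the libraries (correlations of same-numbered libraries -0.060 to 0.043), and the replicate block alone left 6, 7, 2, 5 and 7 RNAs past the threshold in the 5 comparisons, with 3907 in place of 4605 genes in A549 and 4788 in place of 5266 in H1792. H19 could not be fitted in A549 or over both lines with at least 10 counts in every library. Scaling by total counts moved the median log2 difference of all genes between the lines in DMSO from 0.04 to -0.07, and the calls of the 9 there did not change. Depth limits H19, whose A549 counts per library were 0 to 41. The pooled H19 fold without a DMSO library and the counts of RNAs without H19 were added after the data were seen.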
